A study of Homo sapiens with 90 samples.

Results

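A375 is an established human melanoma line that carries an activating BRAF mutation, and the comparison described here is its response to the BRAF inhibitor vemurafenib after 48 h. The members are the 6 A375 libraries that the labels place in these arms, of 90 libraries in the series, and all 53893 genes of the table were considered. The vemurafenib arm (replicates 1, 3 and 4) received 1 uM of the drug for 48 h. The DMSO arm (replicates 2, 3 and 4) received 0.1% of the vehicle for the same 48 h. The labels name no genetic change in either arm, both arms were grown in the same serum-containing medium, and a single line stands for melanoma. The series holds 6 cancer cell lines in all, each given a targeted kinase inhibitor, the transcription kinase inhibitor THZ1, their combination or vehicle, and RNA was sequenced from the cells. The targeted inhibitor was also given for 7 days. The A375 libraries of that arm, of THZ1 and of the combination entered the fit. The question was how the transcriptome of a BRAF-mutant line differs under its targeted drug.

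In melanomas of this kind the mutant BRAF kinase drives MEK and ERK without a signal from the cell surface. ERK in turn induces ETS-family and AP-1 transcription factors, D-type cyclin, and a set of inhibitors, the dual-specificity phosphatases, Sprouty and SPRED proteins, that act back on the cascade. MITF and SOX10 are the regulators of the melanocyte lineage, which melanoma cells keep to differing degrees, and some melanomas instead carry programmes of the neural crest, the embryonic tissue from which melanocytes come.

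The library totals were 5958423, 6295747 and 11566918 expected counts with vemurafenib and 6184597, 6228498 and 12169660 with DMSO. Each of the 6 libraries was closest to another library of its own group. Vemurafenib replicate 4 carries a lung tissue label where the other A375 libraries say skin. In that library the lung markers NKX2-1, SFTPB and SFTPC had 2, 1 and 1 counts, and SFTPA1, SFTPA2, SFTPD and SCGB1A1 had 0. The epithelial keratins of the same marker list were expressed there, KRT18 at 61.1 CPM and KRT7 at 1.63 CPM, as in the other vemurafenib libraries (KRT18 at 72.5 and 59.6 CPM, KRT7 at 1.95 and 1.502 CPM). All 6 libraries held the melanocyte-lineage gene SOX10 at 1522, 1521 and 1426 CPM with vemurafenib and 1032, 1003 and 979.8 CPM with DMSO. The endothelial markers CDH5 and EMCN, the T cell marker CD3D and the B cell marker MS4A1 were at 0 counts in all 6. Other endothelial markers were present at low level. TEK had 10 counts over the vemurafenib libraries and 9 over the DMSO libraries, and CLDN5 had 0 and 12. The 3 tested endothelial markers summed to 3.99 CPM with vemurafenib and 5.31 CPM with DMSO.

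Vemurafenib replicate 1 stood apart from its group, and this touches the results below. Of 10818 genes that averaged at least 10 CPM (counts scaled to a common library total) in one group, 56 were at least 2-fold above both other vemurafenib libraries in replicate 1, against 5 in replicate 3, 1 in replicate 4, and 1 or 2 in each DMSO library. The gap was widest for EGR3, an early growth response transcription factor, with 42.0 CPM in vemurafenib replicate 1, 3.84 in replicate 3 and 4.08 in replicate 4. EGR3 had 40.3, 45.3 and 42.4 CPM with DMSO. CXCL8, TNFAIP3, MAFF, FOSB, CSRNP1, SIK1, NR4A2 and IER5, which are induced quickly by growth factors, cytokines or stress, were among the 12 widest gaps. For the genes named below whose call changes without replicate 1, the values without it stand beside the result. The cause of the departure was not tested.

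Across 16106 tested genes, 10823 were called at an adjusted p under 0.05, which is 67.2% of them, with 5522 higher (34.3%) and 5301 lower (32.9%). Changes of at least 2-fold were called for 2253 higher (14.0%) and 2036 lower genes (12.6%). The median log2 fold change over all tested genes was 0.03. All tests of this comparison are edgeR quasi-likelihood tests over the 15 A375 libraries with Benjamini-Hochberg adjustment, values are CPM after TMM scaling, and fold changes are vemurafenib over DMSO. Because most genes passed, a member's passing alone says little, and sizes and directions are given. How many of all tested genes had groups without overlap is not given here. A lack of overlap therefore only describes the printed values. CPM values are shares of a library. In bulk RNA, fewer cells of a type and less RNA per cell cannot be told apart.

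**Figure D1:**
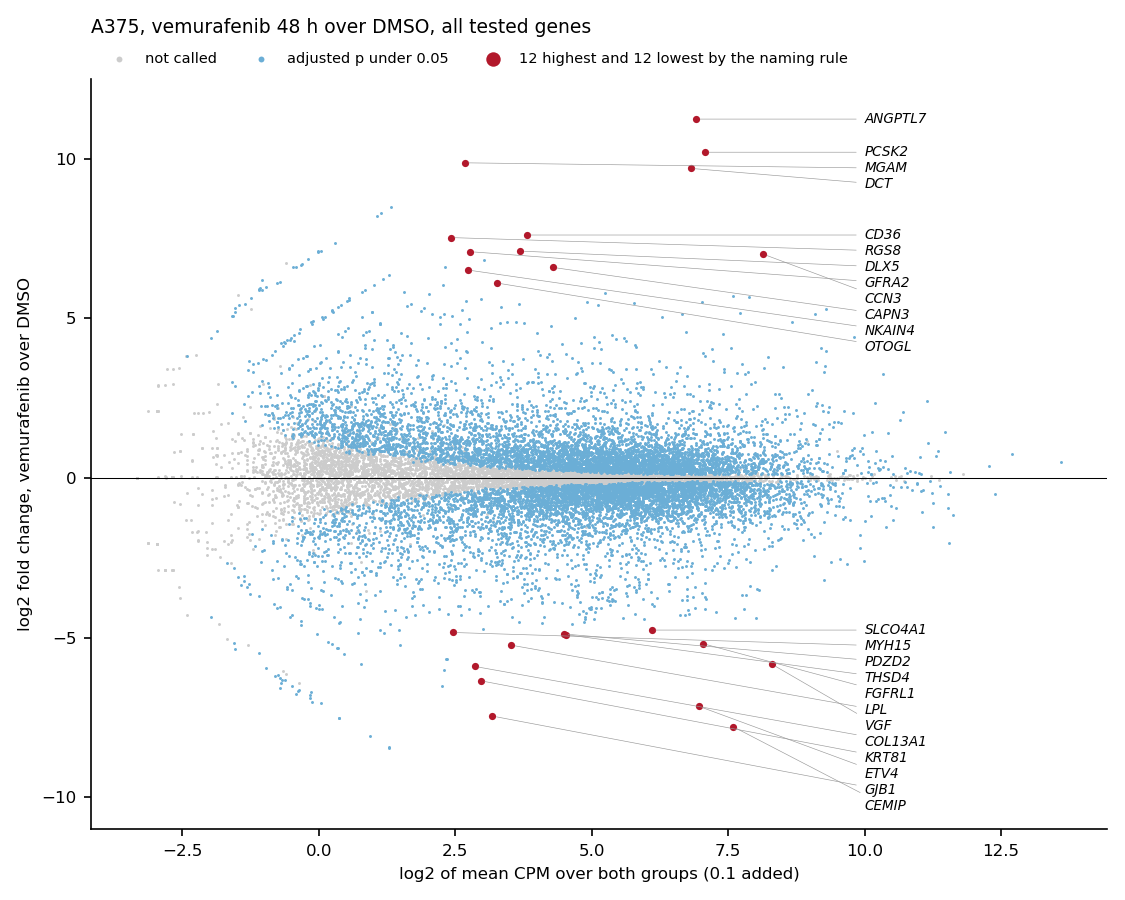
Log2 fold change of vemurafenib over DMSO (y axis) against the log2 of the mean CPM of both groups (x axis) for the 16106 tested genes, with blue points called and the 12 highest and 12 lowest genes of the naming rule in red. ANGPTL7 and PCSK2 lie at the top, and CEMIP, GJB1 and ETV4 at the bottom.

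Several groups of genes are shown first by their promoters, each searched for a short motif. Motifs were searched on both strands from 250 bases before to 50 after the start site of RefSeq, build GRCh38.p14, in the 11559 tested genes that matched by symbol. An E2F motif, counted as the letters TTTCGCG, as well as the related letters TTTGGCG, and finally the related letters TTTCCCG, was present in 20 of 30 matched promoters of the DNA replication and G1/S list, 66.7%, beside 11.0% of all tested genes. The CHR element TTTGAA was present in 16 of 26 promoters of the mitosis list, 61.5%, beside 9.97%. Other lists also exceeded that background, among them class II antigen presentation with 4 of 10, 40%, and ribosomal proteins with 5 of 23, 21.7%. The E-box CACGTG, which MITF, TFE3 and TFEB bind, was present in 9 of 19 promoters of the lysosome list, 47.4%, beside 9.80%, and in 7 of 20 of the ribosome biogenesis list, 35%. The M-box core CATGTG was present in 4 of 14 promoters of the melanosome and pigment list, 28.6%, beside 6.85%, and the neural crest list came close to it with 4 of 16, 25%. Some shorter lists had similar shares, among them MAPK feedback inhibitors with 2 of 8, 25%, and proteases with 2 of 9, 22.2%. The anti-apoptotic BCL2 list had 1 of 3, 33.3%. The GTAAACA motif of FOXO factors was present in 2 of 20 promoters of the FOXO target list, 10.0%, beside 2.33%, but other lists reached that share too, among them 3 of 16 promoters from RAS to ERK, 18.75%, and 2 of 19 of the lysosome list, 10.5%. No motif contains another, the E-box is its own reverse complement, and a match describes the letters only.

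The 2 promoters of each list printed here belong to called members whose promoter holds the list's motif, shown in capitals. Of the members considered, they had the largest changes in the list's direction. Not every chromosome was considered for printing. For DNA replication these are MCM10 (chr10:13161308-13161607, plus strand) and CDC25A (chr3:48188368-48188667, minus strand).
MCM10: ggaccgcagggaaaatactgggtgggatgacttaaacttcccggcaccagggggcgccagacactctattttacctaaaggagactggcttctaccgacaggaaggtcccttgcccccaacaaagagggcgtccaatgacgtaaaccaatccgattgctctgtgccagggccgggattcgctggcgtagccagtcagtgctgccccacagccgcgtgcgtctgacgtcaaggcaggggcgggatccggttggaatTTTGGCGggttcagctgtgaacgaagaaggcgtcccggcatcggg
CDC25A: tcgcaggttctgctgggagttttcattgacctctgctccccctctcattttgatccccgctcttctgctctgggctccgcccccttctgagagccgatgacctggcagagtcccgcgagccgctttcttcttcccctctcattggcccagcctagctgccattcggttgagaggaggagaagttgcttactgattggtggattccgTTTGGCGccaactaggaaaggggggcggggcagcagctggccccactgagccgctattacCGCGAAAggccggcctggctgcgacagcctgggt
For mitosis they are MKI67 (chr10:128126374-128126673, minus strand) and PLK1 (chr16:23678639-23678938, plus strand), and in MKI67 both copies lie within 50 bases of the start.
MKI67: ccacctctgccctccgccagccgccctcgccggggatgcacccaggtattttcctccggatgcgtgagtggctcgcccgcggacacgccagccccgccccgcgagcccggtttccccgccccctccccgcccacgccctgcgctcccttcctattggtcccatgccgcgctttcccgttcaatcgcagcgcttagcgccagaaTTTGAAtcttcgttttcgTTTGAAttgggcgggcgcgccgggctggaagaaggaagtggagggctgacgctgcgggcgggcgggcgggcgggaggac
PLK1: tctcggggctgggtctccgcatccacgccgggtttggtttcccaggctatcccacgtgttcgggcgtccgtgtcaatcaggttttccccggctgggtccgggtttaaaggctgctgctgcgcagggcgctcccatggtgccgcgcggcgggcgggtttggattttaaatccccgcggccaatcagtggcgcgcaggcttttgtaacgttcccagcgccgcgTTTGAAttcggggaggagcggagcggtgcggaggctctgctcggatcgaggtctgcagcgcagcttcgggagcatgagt
For the lysosome they are CTSF (chr11:66568557-66568856, minus strand) and CTSA (chr20:45891085-45891384, plus strand), each with 2 E-boxes.
CTSF: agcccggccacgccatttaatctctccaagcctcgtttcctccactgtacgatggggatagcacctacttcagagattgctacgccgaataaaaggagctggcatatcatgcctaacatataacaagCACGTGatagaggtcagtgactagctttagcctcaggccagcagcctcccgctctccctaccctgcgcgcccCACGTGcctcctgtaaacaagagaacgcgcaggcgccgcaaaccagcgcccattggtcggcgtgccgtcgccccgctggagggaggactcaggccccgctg
CTSA: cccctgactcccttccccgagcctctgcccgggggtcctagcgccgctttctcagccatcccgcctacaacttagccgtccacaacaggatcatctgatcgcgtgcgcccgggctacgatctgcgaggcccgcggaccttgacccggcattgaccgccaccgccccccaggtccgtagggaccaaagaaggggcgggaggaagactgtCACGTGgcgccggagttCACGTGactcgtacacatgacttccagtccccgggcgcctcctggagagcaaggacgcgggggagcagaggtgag
For the pigment list they are GPNMB (chr7:23246525-23246824, plus strand) and TSPAN10 (chr17:81642055-81642354, plus strand).
GPNMB: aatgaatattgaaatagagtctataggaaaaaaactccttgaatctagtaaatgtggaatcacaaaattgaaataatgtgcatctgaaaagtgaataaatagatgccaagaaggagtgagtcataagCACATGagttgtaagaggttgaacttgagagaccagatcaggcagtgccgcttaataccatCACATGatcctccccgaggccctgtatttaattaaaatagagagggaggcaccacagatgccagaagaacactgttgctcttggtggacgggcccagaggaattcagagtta
TSPAN10: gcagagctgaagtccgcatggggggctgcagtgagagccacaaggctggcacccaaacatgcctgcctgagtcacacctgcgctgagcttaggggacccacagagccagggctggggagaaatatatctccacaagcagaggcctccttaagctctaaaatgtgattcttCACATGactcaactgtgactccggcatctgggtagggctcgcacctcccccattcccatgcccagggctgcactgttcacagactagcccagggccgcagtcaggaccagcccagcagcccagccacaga

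The output of the MAPK cascade was lower with vemurafenib in most listed genes. Of 12 feedback inhibitors, 10 were called lower (83.3%, beside 32.9% of all tested genes) and none higher, with a median log2 fold change of -1.49. SPRY4, a Sprouty protein that restrains receptor signalling to RAS, had 37.6, 8.51 and 12.1 CPM with vemurafenib and 368, 383 and 382 CPM with DMSO (log2 fold change -4.39 ± 0.37 (SE), adjusted p = 4.5e-09). The DMSO libraries lay together and all 3 vemurafenib libraries lay far below them, with replicate 1 the highest of the 3. SPRY1 had 1.60, 0.668 and 1.45 CPM in the vemurafenib libraries, against 17.2, 17.6 and 20.5 CPM in the DMSO libraries (log2 fold change -3.85 ± 0.26 (SE), adjusted p = 1.6e-10).

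ERRFI1, an inhibitor of the EGF receptor family, had 58.0, 44.1 and 50.5 CPM in the vemurafenib libraries, against 334, 344 and 375.5 CPM in the DMSO libraries (log2 fold change -2.79 ± 0.12, adjusted p = 3.4e-13). RASA2, a GTPase-activating protein that switches RAS off, had 3.19, 5.84 and 4.54 CPM in the vemurafenib libraries, against 24.6, 28.6 and 25.3 CPM in the DMSO libraries (log2 fold change -2.52 ± 0.14, adjusted p = 9.5e-12). DUSP4, a nuclear phosphatase of ERK, had 180.0, 131 and 136 CPM with vemurafenib and 565, 534 and 565 CPM with DMSO (log2 fold change -1.91 ± 0.11, adjusted p = 2.9e-11). In these 3 genes the groups did not overlap. IER3 had 349.5, 129 and 115 CPM in the vemurafenib libraries, against 701, 771 and 756 CPM in the DMSO libraries, with replicate 1 again highest of the vemurafenib libraries (log2 fold change -1.93 ± 0.43, adjusted p = 5.7e-04).

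The SPRED proteins, which bring neurofibromin to RAS, were lower by less: the log2 fold change was -0.38 for SPRED1, -0.97 for SPRED2 and -1.06 for SPRED3. DUSP6, the cytoplasmic phosphatase of ERK, had 299.7, 154 and 151 CPM with vemurafenib and 243, 254 and 267 CPM with DMSO, so replicate 1 lay above every DMSO library and the other vemurafenib libraries below them (log2 fold change -0.35 ± 0.19, adjusted p = 0.11). Without replicate 1 its log2 fold change was -0.74 (adjusted p = 2.4e-05). DUSP5 had 66.9, 25.2 and 22.8 CPM in the vemurafenib libraries, against 57.6, 57.4 and 53.5 CPM in the DMSO libraries (log2 fold change -0.62 ± 0.34, adjusted p = 0.12). Without replicate 1 DUSP5 gave -1.24 (adjusted p = 0.0014). SPRY2 had 309, 122 and 157 CPM with vemurafenib and 284, 310.2 and 318 CPM with DMSO and passed with overlapping groups (log2 fold change -0.65 ± 0.25, adjusted p = 0.027). That call ended without vemurafenib replicate 3 or 4 (adjusted p = 0.14 and 0.13) and without DMSO replicate 3 or 4 (0.056 and 0.072), and with DESeq2 (0.11). Without replicate 1 all 12 inhibitors were called lower, with a median of -1.65, and all 12 were also called lower when genes with low counts were kept in the fit.

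**Figure D2:**
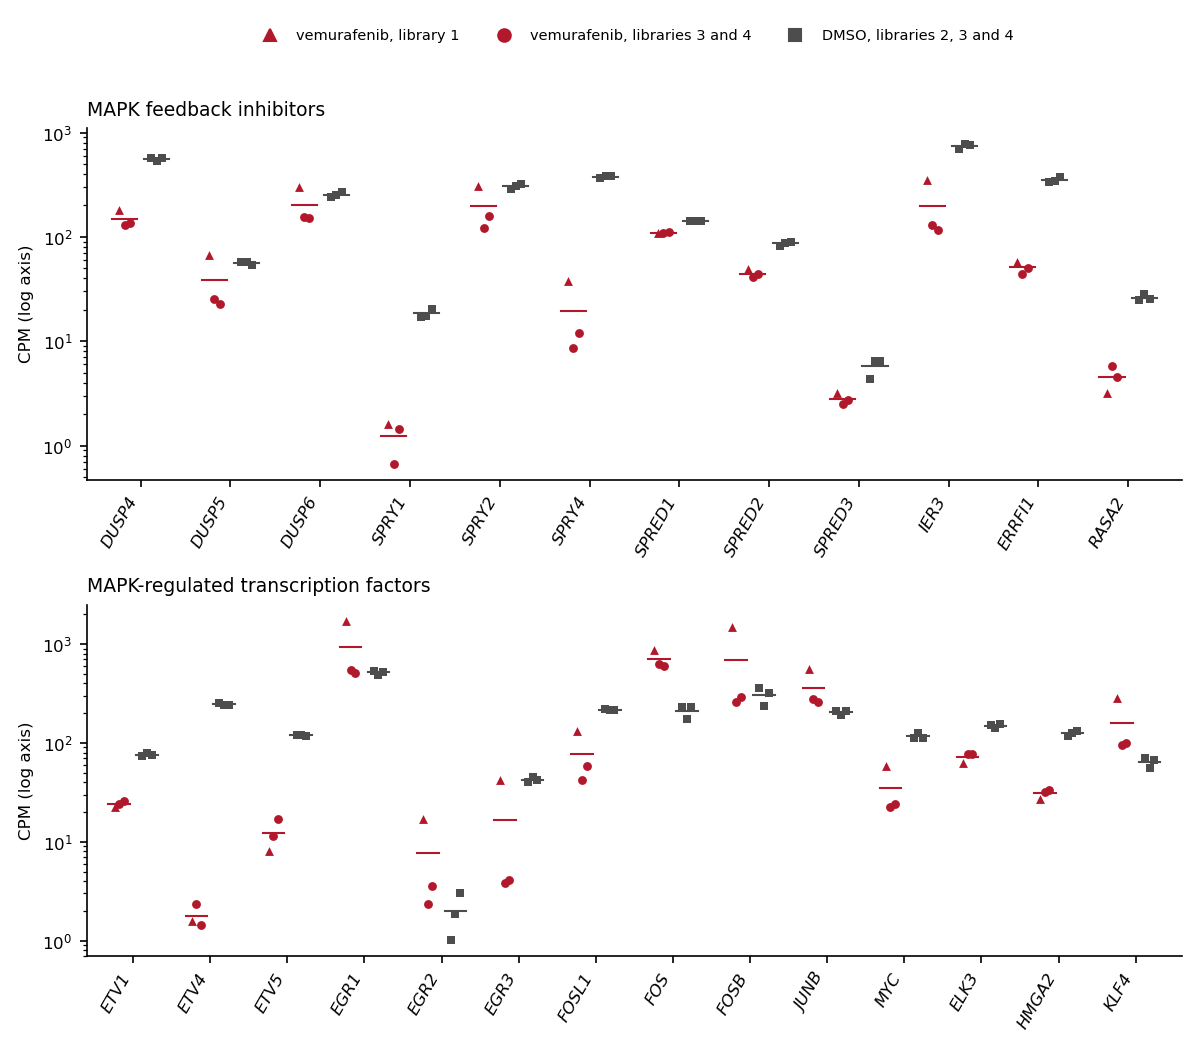
CPM of each library on a log axis for the 12 feedback inhibitors (top) and 14 MAPK-regulated transcription factors (bottom), vemurafenib in red with replicate 1 as a triangle and DMSO in grey, bars marking group means. SPRY4 and ETV4 separate widely, while in DUSP6, EGR1 and EGR3 the triangle lies near or above the DMSO values.

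Among 14 MAPK-regulated transcription factors 7 were called lower (50%) and 3 higher (21.4%), beside 32.9% and 34.3% of all tested genes. The PEA3 subfamily of ETS factors, direct outputs of ERK in many tumours, fell throughout. ETV4 had 1.60, 2.34 and 1.45 CPM in the vemurafenib libraries, against 255, 243 and 244 CPM in the DMSO libraries (log2 fold change -7.15 ± 0.10 (SE), adjusted p = 7.7e-20). ETV5 had 8.16, 11.5 and 17.2 CPM with vemurafenib and 120.0, 120.3 and 117 CPM with DMSO (log2 fold change -3.18 ± 0.13, adjusted p = 1.6e-13), and ETV1 had 22.3, 24.0 and 26.1 CPM with vemurafenib and 74.0, 79.4 and 75.2 CPM with DMSO (log2 fold change -1.64 ± 0.07, adjusted p = 3.6e-13). In none of the 3 did a vemurafenib library come near the DMSO range.

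FOSL1, an AP-1 subunit, had 132, 41.7 and 59.0 CPM in the vemurafenib libraries, against 222, 217 and 213 CPM in the DMSO libraries (log2 fold change -1.52 ± 0.28, adjusted p = 1.0e-04). MYC had 58.3, 22.5 and 24.0 CPM in the vemurafenib libraries, against 111, 127 and 113 CPM in the DMSO libraries (log2 fold change -1.81 ± 0.34, adjusted p = 1.0e-04). HMGA2, a chromatin architectural protein, had a log2 fold change of -2.003 and the ETS factor ELK3 one of -1.04. The AP-1 subunit FOS went the other way, with 881, 625 and 603 CPM with vemurafenib and 233, 174 and 231 CPM with DMSO (log2 fold change 1.72 ± 0.20, adjusted p = 4.0e-07).

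KLF4 and JUNB were also called higher, at log2 fold changes of 1.26 and 0.82. Both calls ended without replicate 1: KLF4 then gave 0.57 (adjusted p = 0.093) and JUNB 0.38 (adjusted p = 0.2). The JUNB call also ended without DMSO replicate 3 and with DESeq2 (adjusted p = 0.052 each). EGR1 had 1727, 552 and 507 CPM in the vemurafenib libraries, against 537, 492 and 524 CPM in the DMSO libraries and was not called (log2 fold change 0.84 ± 0.43, adjusted p = 0.091). FOSB had 1504, 261 and 291 CPM with vemurafenib and 356, 237 and 321 CPM with DMSO and was not called either (log2 fold change 1.16 ± 0.61, adjusted p = 0.1). Without replicate 1 the log2 fold change of EGR1 was 0.027 (adjusted p = 0.96), that of FOSB changed sign to -0.14 (adjusted p = 0.82), and EGR3 was called lower at -3.42 (adjusted p = 0.0041), against -1.54 with it (adjusted p = 0.1). EGR2 had 17.2, 2.34 and 3.54 CPM with vemurafenib and 1.01, 1.86 and 3.07 CPM with DMSO and was not called (log2 fold change 1.67, adjusted p = 0.16, and 0.48 without replicate 1). EGR1 and FOSB were called higher when vemurafenib replicate 3 (adjusted p = 0.040 and 0.037) or 4 (0.031 and 0.041) was left out. Leaving replicate 1 out gave 8 factors called lower and 1 higher. With the 6 libraries alone EGR1 and EGR2 were called higher and EGR3 lower (adjusted p = 0.047, 0.034 and 0.028), giving 8 lower and 5 higher, and with low-count genes kept in the fit all 14 were called, 8 lower and 6 higher.

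Of 19 other targets of the cascade 15 were called lower (78.9%) and 2 higher (10.5%), beside 32.9% and 34.3% of all tested genes. VGF, the precursor of secreted neuropeptides, had 11.7, 8.68 and 11.7 CPM in the vemurafenib libraries, against 587, 637 and 635 CPM in the DMSO libraries (log2 fold change -5.83 ± 0.14 (SE), adjusted p = 4.0e-17). PHLDA2 had 28.7, 18.2 and 17.6 CPM in the vemurafenib libraries, against 137, 143 and 139 CPM in the DMSO libraries (log2 fold change -2.75 ± 0.12, adjusted p = 3.6e-13). HBEGF, a ligand of the EGF receptor, was higher, with 42.0, 18.2 and 30.3 CPM with vemurafenib and 10.3, 7.95 and 8.33 CPM with DMSO (log2 fold change 1.78 ± 0.26, adjusted p = 7.6e-06), as was PLAT, tissue plasminogen activator, at 0.71. The vemurafenib libraries of HBEGF were spread more widely than those of DMSO, but the groups did not overlap.

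The kinases and adaptors of the cascade itself were called in both directions. Of 20 genes from RAS to ERK, 5 were called higher and 7 lower, and the median log2 fold change was 0.03. These counts are 25% and 35%, beside 34.3% and 32.9% of all tested genes. The largest called change was in MAPK3, which encodes ERK1, with 30.7, 36.2 and 31.6 CPM with vemurafenib and 70.9, 75.8 and 73.6 CPM with DMSO (log2 fold change -1.17 ± 0.07, adjusted p = 2.9e-11). RASA1 and HRAS were lower at -0.72 and -0.62, and the scaffold KSR1 and the exchange factor SOS2 higher at 0.56 and 0.45. The KSR1 call ended without vemurafenib replicate 4 (adjusted p = 0.076) or DMSO replicate 4 (0.051). The drug's target BRAF had 21.99, 21.9 and 26.6 CPM in the vemurafenib libraries, against 23.1, 19.6 and 20.5 CPM in the DMSO libraries and was not called (adjusted p = 0.14).

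Every tested gene of the DNA replication and mitosis lists was lower with vemurafenib. All 35 replication and G1/S genes were called lower, with log2 fold changes between -4.57 and -1.16 and a median of -2.57, and all 32 mitosis genes, between -4.43 and -1.51 with a median of -3.84. Summed over the list, mitosis genes held 427 ± 49.5 CPM with vemurafenib and 4681 ± 127 CPM with DMSO (SD, n = 3 each). No library of one group reached the range of the other in the 6 genes that follow, which describes their printed values only.

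MCM10, which helps to activate the replicative helicase, had 1.77, 2.50 and 1.81 CPM with vemurafenib and 46.2, 45.01 and 51.1 CPM with DMSO (log2 fold change -4.57 ± 0.16 (SE), adjusted p = 6.3e-15). RRM2, a subunit of the enzyme that makes deoxynucleotides, had 10.1, 20.4 and 14.2 CPM in the vemurafenib libraries, against 241, 248 and 271 CPM in the DMSO libraries (log2 fold change -4.10 ± 0.12, adjusted p = 9.7e-16). CDC25A, a phosphatase that activates cyclin-dependent kinases, had 2.48, 5.68 and 3.36 CPM with vemurafenib and 65.0, 59.6 and 66.3 CPM with DMSO (log2 fold change -4.08 ± 0.16, adjusted p = 4.7e-14). These lead the replication list. The promoters of MCM10 and CDC25A were printed above because they hold the E2F motif, so its presence there is no separate result. RRM2, whose change lies between theirs, was not among the printed promoters.

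In the mitosis list BUB1, a kinase of the spindle checkpoint, had 4.08, 2.50 and 2.45 CPM with vemurafenib and 60.1, 63.6 and 64.0 CPM with DMSO (log2 fold change -4.43 ± 0.14, adjusted p = 1.6e-15). UBE2C, a ubiquitin-conjugating enzyme of the anaphase-promoting complex, had 3.01, 7.85 and 5.44 CPM in the vemurafenib libraries, against 119, 114 and 122 CPM in the DMSO libraries (log2 fold change -4.43 ± 0.14, adjusted p = 1.5e-15). MKI67, which encodes the proliferation marker Ki-67, had 17.7, 30.0 and 23.0 CPM with vemurafenib and 487, 499 and 488 CPM with DMSO (log2 fold change -4.38 ± 0.11, adjusted p = 1.2e-16). The smallest change of the list was that of CDC25B at -1.51, named here because it bounds the list.

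Homologous recombination genes, listed with those of replication stress, were called lower in 18 of 19. Their median was -2.72. RAD54L, CLSPN and EXO1, which act in strand exchange, checkpoint signalling and end resection, were lowest at -3.76, -3.72 and -3.37. The checkpoint kinase ATR, the only member not called, had 48.6, 52.7 and 49.5 CPM in the vemurafenib libraries, against 51.0, 52.6 and 59.5 CPM in the DMSO libraries (adjusted p = 0.14).

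Among 13 cyclin D, CDK and inhibitor genes 8 were lower (61.5%) and 5 higher (38.5%), beside 32.9% and 34.3% of all tested genes. CDK2 had 24.1, 26.5 and 23.7 CPM with vemurafenib and 95.7, 101 and 103 CPM with DMSO (log2 fold change -2.02 ± 0.07, adjusted p = 1.1e-14), CDK6 had 61.7, 63.3 and 66.9 CPM with vemurafenib and 246, 261 and 255 CPM with DMSO (log2 fold change -1.99 ± 0.07, adjusted p = 6.2e-15) and cyclin D1, CCND1, had 142, 137 and 171 CPM in the vemurafenib libraries, against 549.9, 573 and 564 CPM in the DMSO libraries (log2 fold change -1.90 ± 0.07, adjusted p = 2.7e-14). The inhibitor of CDK4 and CDK6 encoded by CDKN2C rose, with 204, 202 and 198 CPM in the vemurafenib libraries, against 66.2, 73.1 and 79.6 CPM in the DMSO libraries (log2 fold change 1.45 ± 0.06, adjusted p = 2.5e-13). CDKN1A, which encodes p21, and the pocket protein gene RBL2 rose by less, at 0.56 and 0.47.

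**Figure D3:**
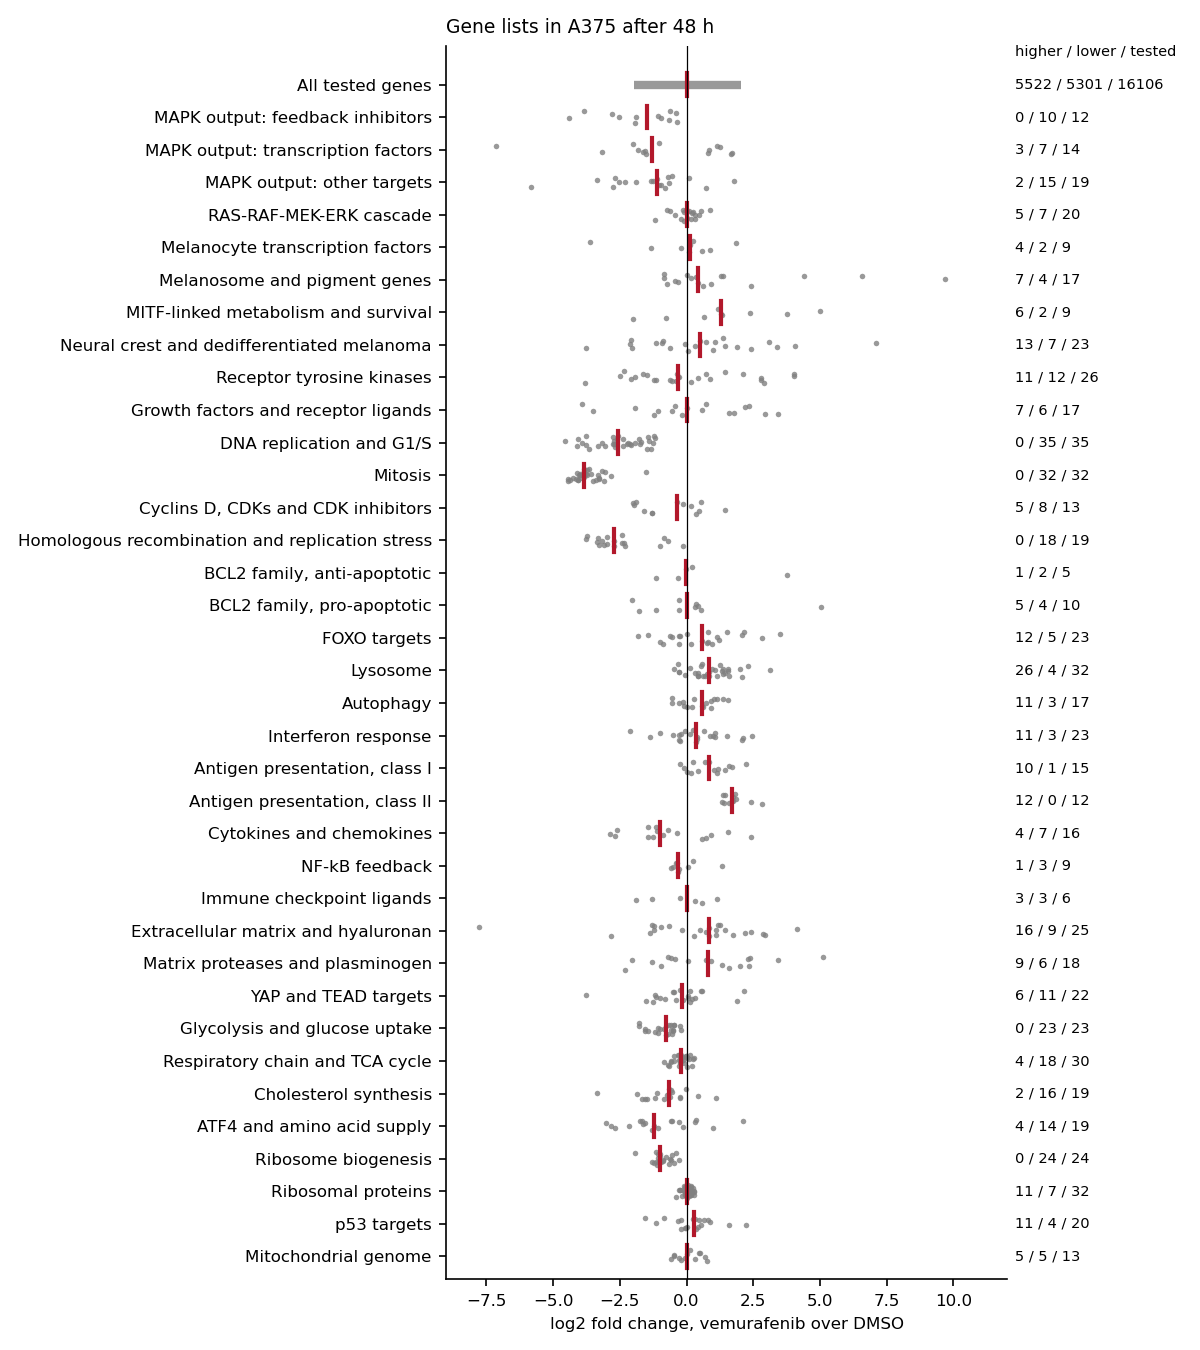
Log2 fold change of each tested member (grey points) and the median (red bar) of 36 gene lists, with the number called higher, called lower and tested at the right, and the 5th to 95th percentile of all 16106 tested genes as a grey bar at the top. Replication, mitosis and recombination lie farthest left, and the medians of class II antigen presentation and lysosome genes lie to the right of 0.

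Melanocyte genes did not move as one. Of 9 tested lineage transcription factors 4 were called higher (44.4%) and 2 lower (22.2%), beside 34.3% and 32.9% of all tested genes. MITF had 69.3, 64.1 and 63.6 CPM with vemurafenib and 34.7, 35.7 and 35.3 CPM with DMSO (log2 fold change 0.89 ± 0.10 (SE), adjusted p = 1.3e-07). SOX10 was higher by 0.57 on the log2 scale (adjusted p = 9.2e-09). TFAP2A had 76.4, 76.6 and 83.0 CPM with vemurafenib and 24.8, 22.7 and 19.6 CPM with DMSO (log2 fold change 1.85 ± 0.10, adjusted p = 5.1e-12). LEF1, a nuclear partner of beta-catenin, fell, with 6.21, 6.01 and 5.99 CPM with vemurafenib and 73.8, 77.7 and 73.5 CPM with DMSO (log2 fold change -3.63 ± 0.11, adjusted p = 9.6e-16).

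TFE3 was called higher at 0.25 and SOX5 lower at -0.21, a call that ended when vemurafenib replicate 3 or 4 or DMSO replicate 3 was left out (adjusted p = 0.093, 0.061 and 0.057). PAX3 (0.14) and TFEB (0.10) were not called, with adjusted p of 0.28 and 0.74. TFEC had 1 count with vemurafenib and 3 with DMSO.

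Of 17 tested melanosome and pigment genes 7 were called higher (41.2%) and 4 lower (23.5%), beside 34.3% and 32.9% of all tested genes. DCT, an enzyme of eumelanin synthesis, had 240.5, 201 and 232 CPM in the vemurafenib libraries, against 0.168, 0.169 and 0.351 CPM in the DMSO libraries (log2 fold change 9.69 ± 0.16 (SE), adjusted p = 3.0e-19). The 3 DMSO libraries held 6 counts of DCT in all and the vemurafenib libraries 5124. CAPN3, a calpain protease, had 39.5, 33.4 and 42.6 CPM in the vemurafenib libraries, against 0.674, 0.508 and 0.175 CPM in the DMSO libraries (log2 fold change 6.59 ± 0.28, adjusted p = 1.3e-13). GPNMB, a glycoprotein of melanosomes and lysosomes, had 1717, 1691 and 1711 CPM with vemurafenib and 80.0, 79.2 and 81.8 CPM with DMSO (log2 fold change 4.41 ± 0.05, adjusted p = 5.3e-21). None of these 3 genes had overlapping groups. The SE of DCT and CAPN3 does not cover the counting error of their few DMSO counts.

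The classical antigens of differentiated melanocytes did not follow. MLANA had 1.06, 0.668 and 0.635 CPM in the vemurafenib libraries, against 1.01, 1.02 and 0.263 CPM in the DMSO libraries (adjusted p = 0.82), and PMEL had 1.60, 2.003 and 1.36 CPM with vemurafenib and 1.18, 1.02 and 0.965 CPM with DMSO (adjusted p = 0.13). Tyrosinase, TYR, had 1 count over the 3 vemurafenib libraries and 0 over the 3 DMSO libraries. TRPM1 had 3 counts with vemurafenib and 1 with DMSO, and TYRP1 24 and 5, all under the filter on low counts. RAB38 and HPS4, which serve melanosome biogenesis, and MREG were called lower at -0.84, -0.74 and -0.43. The call of MREG was lost under 8 of the 12 alternatives tried.

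Genes tied to MITF in metabolism and survival were mostly higher, with 6 called higher (66.7%) and 2 lower (22.2%) of 9. Of all tested genes 34.3% were called higher and 32.9% lower. SLC7A8, an amino acid transporter, had 48.6, 49.7 and 52.5 CPM with vemurafenib and 0.842, 1.69 and 1.84 CPM with DMSO (log2 fold change 5.02 ± 0.13, adjusted p = 1.1e-16). BCL2A1, an anti-apoptotic member of the BCL2 family, had 14.2, 8.35 and 10.16 CPM in the vemurafenib libraries, against 1.35, 0.846 and 0.439 CPM in the DMSO libraries (log2 fold change 3.76 ± 0.38, adjusted p = 6.0e-08). CTSK, the protease cathepsin K, had 78.9, 86.96 and 79.1 CPM in the vemurafenib libraries, against 14.7, 18.1 and 15.1 CPM in the DMSO libraries (log2 fold change 2.37 ± 0.09, adjusted p = 4.9e-14). CDK2, given above, and HIF1A at -0.76 were the members called lower. Of the melanocyte markers, CSPG4, a surface proteoglycan of melanoma cells, fell, with 210.3, 227 and 225 CPM in the vemurafenib libraries, against 1291, 1287 and 1235 CPM in the DMSO libraries (log2 fold change -2.52 ± 0.06, adjusted p = 3.0e-17), while S100B rose by 1.35 (adjusted p = 2.9e-11).

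**Figure D4:**
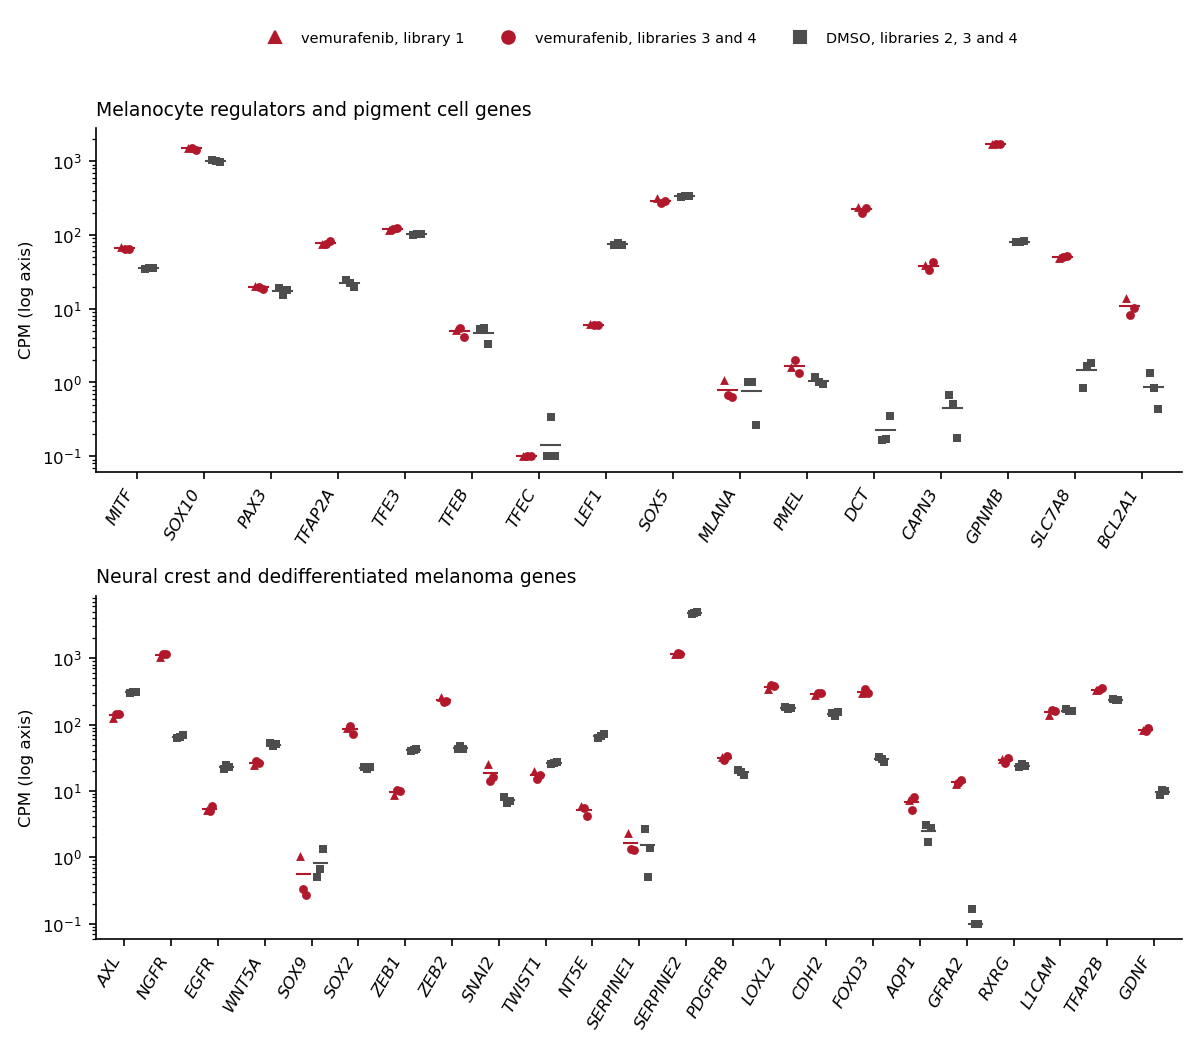
CPM of each library on a log axis (values under 0.1 drawn at 0.1) for melanocyte regulators and pigment cell genes (top) and neural crest and dedifferentiated melanoma genes (bottom), vemurafenib in red left of DMSO in grey. DCT, CAPN3, GPNMB, NGFR, FOXD3 and GFRA2 are higher in all vemurafenib libraries, and LEF1, NT5E and ZEB1 lower.

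Of 23 neural crest and dedifferentiation genes 13 were called higher (56.5%) and 7 lower (30.4%), beside 34.3% and 32.9% of all tested genes. NGFR, the low-affinity nerve growth factor receptor and a marker of neural crest-like melanoma cells, had 1031, 1139 and 1159.8 CPM in the vemurafenib libraries, against 61.7, 65.5 and 69.9 CPM in the DMSO libraries (log2 fold change 4.07 ± 0.07 (SE), adjusted p = 4.6e-19). FOXD3, a transcription factor of the early neural crest, had 294, 346 and 302 CPM with vemurafenib and 32.0, 30.8 and 27.5 CPM with DMSO (log2 fold change 3.40 ± 0.14, adjusted p = 1.2e-13). GDNF had 81.6, 79.1 and 87.4 CPM in the vemurafenib libraries, against 8.76, 10.5 and 9.91 CPM in the DMSO libraries (log2 fold change 3.09 ± 0.09, adjusted p = 6.2e-16), and its family's receptor subunit GFRA2 had 12.6, 13.2 and 14.5 CPM with vemurafenib and 0.168, 0 and 0.0877 CPM with DMSO. GFRA2 had 2 counts in the DMSO libraries, so the ratio of pooled CPM was 159 with a 95% counting interval of 43.7 to 1319. GDNF was picked after its values were seen.

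NT5E, the ectonucleotidase CD73, was the lowest member, with 6.03, 5.51 and 4.17 CPM with vemurafenib and 63.7, 67.2 and 72.2 CPM with DMSO (log2 fold change -3.75 ± 0.12, adjusted p = 2.1e-15). ZEB1, a transcription factor linked to mesenchymal states, had 8.69, 10.18 and 9.98 CPM with vemurafenib and 39.9, 41.3 and 43.4 CPM with DMSO (log2 fold change -2.10 ± 0.11, adjusted p = 4.9e-12), and EGFR had 5.14, 5.01 and 5.90 CPM with vemurafenib and 21.6, 24.9 and 22.9 CPM with DMSO (log2 fold change -2.08 ± 0.12, adjusted p = 2.3e-11). ZEB2, the relative of ZEB1 that melanocytes express, was called higher at 2.40, and the receptor AXL lower at -1.15. These 2 were picked after their values were seen.

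Receptor tyrosine kinases divided evenly, with 11 called higher (42.3%) and 12 lower (46.2%) of 26, and a median of -0.33. Of all tested genes 34.3% were called higher and 32.9% lower. FGFR2 had 3.90, 5.17 and 4.36 CPM in the vemurafenib libraries, against 0.337, 0.169 and 0.263 CPM in the DMSO libraries (log2 fold change 4.05 ± 0.39, adjusted p = 2.5e-08), MERTK had 2.66, 3.17 and 4.72 CPM in the vemurafenib libraries, against 0.337, 0 and 0.263 CPM in the DMSO libraries (log2 fold change 4.02 ± 0.48, adjusted p = 4.7e-07) and ERBB4 had 2.13, 2.34 and 1.72 CPM in the vemurafenib libraries, against 0.505, 0.169 and 0.175 CPM in the DMSO libraries (log2 fold change 2.89 ± 0.48, adjusted p = 3.3e-05). All 3 were under 6 CPM in every library. FGFR3 had 2.48, 6.18 and 3.63 CPM with vemurafenib and 25.8, 23.7 and 20.5 CPM with DMSO (log2 fold change -2.51 ± 0.21, adjusted p = 3.6e-09). Outside the naming rule, the more abundant receptors DDR1 (2.13), FLT1 (2.79) and ERBB3 (0.89) were called higher and IGF1R (-1.49) lower, chosen after their values were seen.

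Of 17 tested growth factors and ligands 7 were called higher and 6 lower. These counts are 41.2% and 35.3%, beside 34.3% and 32.9% of all tested genes. TGFA, a ligand of the EGF receptor, had 44.3, 40.1 and 43.6 CPM with vemurafenib and 477, 479.5 and 485 CPM with DMSO (log2 fold change -3.49 ± 0.06, adjusted p = 9.7e-19). FGF1 had 50.4, 50.1 and 52.2 CPM with vemurafenib and 5.05, 5.08 and 4.30 CPM with DMSO (log2 fold change 3.43 ± 0.17, adjusted p = 1.4e-12). FGF5 and EGF, both under 10 CPM, were called higher at 2.95 and 2.36, and VEGFC lower at -1.95. HGF had 0 counts with vemurafenib and 11 with DMSO and was under the filter.

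In the BCL2 family a few members moved far. BMF, a BH3-only protein that promotes apoptosis, had 139.6, 159 and 156 CPM in the vemurafenib libraries, against 4.55, 2.88 and 5.53 CPM in the DMSO libraries (log2 fold change 5.05 ± 0.11 (SE), adjusted p = 2.2e-17). PMAIP1, which encodes NOXA, had 14.01, 6.84 and 5.08 CPM with vemurafenib and 30.5, 33.0 and 35.1 CPM with DMSO (log2 fold change -2.05 ± 0.28, adjusted p = 2.6e-06). Of 10 pro-apoptotic members 5 were called higher (50%) and 4 lower (40%), beside 34.3% and 32.9% of all tested genes. BCL2L11, which encodes BIM, BBC3, BAD and BAX were called higher at 0.55, 0.33, 0.43 and 0.34, BID, BAK1 and BOK lower at -0.30, -0.28 and -1.16, and BIK, with 4 and 15 counts, was not called (log2 fold change -1.79, adjusted p = 0.054). Without replicate 1 BIK was called lower at -3.22 (adjusted p = 0.0098). The call of BCL2L11 ended without vemurafenib replicate 1 (adjusted p = 0.058) or 3 (0.081) and without DMSO replicate 3 (0.063) or 4 (0.13). Those of BBC3, BID and BAK1 each ended when 1 of 2 libraries was left out: vemurafenib replicate 4 or DMSO replicate 3 for BBC3 (adjusted p = 0.056 and 0.069, and 0.062 with DESeq2) and for BID (0.11 and 0.070), and vemurafenib replicate 1 or DMSO replicate 2 for BAK1 (0.056 and 0.066). Without DMSO replicate 3 the list thus had 3 called higher and 3 lower.

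Of 5 anti-apoptotic members BCL2A1 was called higher, and BCL2 (-1.14) and BCL2L1 (-0.33) lower. MCL1 had 741, 366 and 378 CPM in the vemurafenib libraries, against 494, 486 and 517 CPM in the DMSO libraries, with replicate 1 above and the other vemurafenib libraries below the DMSO range (log2 fold change -0.02 ± 0.22, adjusted p = 0.95). Without replicate 1 it was called lower at -0.43 (adjusted p = 0.037). BCL2L2 was not called (0.19, adjusted p = 0.066) but was called higher without DMSO replicate 2 (0.25, adjusted p = 0.029).

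FOXO targets, which are released when AKT signalling is low, were called higher in 12 and lower in 5 of 23, and in 11 and 7 without replicate 1. With all libraries the shares were 52.2% and 21.7%, beside 34.3% and 32.9% of all tested genes. SESN3, a stress-responsive regulator of TORC1, had 143, 154 and 154 CPM with vemurafenib and 11.96, 14.9 and 13.4 CPM with DMSO (log2 fold change 3.48 ± 0.10, adjusted p = 3.5e-16). PIK3IP1, an inhibitor of PI3 kinase, had 5.32, 6.34 and 5.26 CPM in the vemurafenib libraries, against 1.01, 0.677 and 0.702 CPM in the DMSO libraries (log2 fold change 2.83 ± 0.34, adjusted p = 4.7e-07), and GADD45B had 80.7, 71.9 and 76.8 CPM in the vemurafenib libraries, against 14.2, 20.6 and 17.0 CPM in the DMSO libraries (log2 fold change 2.15 ± 0.13, adjusted p = 3.5e-11). PDK4, TRIB1 and TRIB2 were called lower at -1.83, -1.43 and -0.997, so the list did not move in one direction.

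Lysosome genes were higher in 26 and lower in 4 of 32, with a median of 0.85, where 34.3% of all tested genes were called higher. Their summed level was 9025 ± 140 CPM with vemurafenib and 4011 ± 49.5 CPM with DMSO (SD, n = 3 each). PSAP, the precursor of the saposins that help to degrade sphingolipids, had 2674, 2710.2 and 2707 CPM with vemurafenib and 653, 639.9 and 645 CPM with DMSO (log2 fold change 2.06 ± 0.04 (SE), adjusted p = 4.2e-18). The cathepsins CTSS and CTSF had log2 fold changes of 3.14 and 2.31, and CTSA, whose promoter is printed above, had 600.1, 584 and 606 CPM in the vemurafenib libraries, against 148, 144 and 153 CPM in the DMSO libraries (log2 fold change 2.01 ± 0.04, adjusted p = 1.7e-17). CTSZ, NPC2 and CTSL were called lower at -0.49, -0.33 and -0.30.

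Autophagy genes were called higher in 11 (64.7%) and lower in 3 (17.6%) of 17, beside 34.3% and 32.9% of all tested genes. The ATG8 proteins MAP1LC3A and GABARAP rose by 1.57 and 1.14 on the log2 scale, and ATG14, a subunit of the lipid kinase that starts autophagosomes, by 1.38. UVRAG and ATG3 were lower at -0.54 and -0.53.

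All 12 tested genes of class II antigen presentation were called higher, with log2 fold changes between 1.31 and 2.84 and a median of 1.72. Without vemurafenib replicate 4, 11 of the 12 were called. Their summed level was 7127 ± 75.6 CPM with vemurafenib and 2456 ± 43.8 CPM with DMSO (SD, n = 3 each). HLA-DOA had 106, 111 and 109 CPM with vemurafenib and 14.8, 13.0 and 16.7 CPM with DMSO (log2 fold change 2.84 ± 0.08, adjusted p = 6.2e-16). HLA-DQA1 had 76.1, 81.6 and 79.5 CPM in the vemurafenib libraries, against 14.5, 13.4 and 15.6 CPM in the DMSO libraries (log2 fold change 2.43 ± 0.08, adjusted p = 7.1e-15). CIITA, the master transactivator of the class II genes, had 169, 166 and 184 CPM with vemurafenib and 72.1, 67.3 and 63.1 CPM with DMSO (log2 fold change 1.37 ± 0.09, adjusted p = 4.6e-11), and CD74, the invariant chain, 4073, 4152 and 4187 CPM with vemurafenib and 1502, 1561 and 1532 CPM with DMSO (log2 fold change 1.43 ± 0.05, adjusted p = 2.1e-15). HLA genes resemble one another and vary between people, so reads may be shared among them and single HLA values are uncertain. The blood marker PTPRC had 30 counts over the vemurafenib libraries and 1 over the DMSO libraries, CD3E 0 and 1, and CD79A 1 and 1. HBA1 had 7 counts over the vemurafenib libraries and 10 over the DMSO libraries, and HBB none. CD14 and LYZ were at most 14 CPM in any library, and LYZ was called lower (-0.91). The part of these markers in the class II result was not tested.

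Class I genes were called higher in 10 (66.7%) and lower in 1 (6.67%) of 15, with a median of 0.83. Of all tested genes 34.3% were called higher and 32.9% lower. HLA-F, the aminopeptidase ERAP1 and HLA-E led, at 2.23, 1.69 and 1.59, and the peptide transporter subunit TAP2 was the one called lower at -0.23. Interferon-response genes were mixed, with 11 called higher (47.8%) and 3 lower (13.0%) of 23. IFIT3 had 44.3, 38.7 and 40.6 CPM in the vemurafenib libraries, against 9.77, 9.81 and 9.56 CPM in the DMSO libraries (log2 fold change 2.08 ± 0.09, adjusted p = 1.7e-13) and IFIT2 a log2 fold change of 2.13, while ISG20 had 22.2, 23.4 and 24.1 CPM in the vemurafenib libraries, against 97.7, 98.6 and 106 CPM in the DMSO libraries (log2 fold change -2.11 ± 0.07, adjusted p = 6.9e-15).

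Of 16 tested cytokines and chemokines 7 were called lower (43.75%) and 4 higher (25%), beside 32.9% and 34.3% of all tested genes. INHBA, a subunit of activin, had 27.8, 25.7 and 28.0 CPM with vemurafenib and 158, 164 and 173 CPM with DMSO (log2 fold change -2.60 ± 0.07, adjusted p = 5.3e-16), and CXCL1 had 3.01, 3.51 and 2.09 CPM in the vemurafenib libraries, against 17.0, 17.3 and 17.7 CPM in the DMSO libraries (log2 fold change -2.67 ± 0.36, adjusted p = 2.6e-06). TGFB2 was called higher at 2.42, with no library above 10 CPM. CXCL8 had 14.5, 1.67 and 1.54 CPM with vemurafenib and 9.27, 10.8 and 12.4 CPM with DMSO and was not called (adjusted p = 0.24). Without replicate 1 it was called lower at -2.79 (adjusted p = 0.02). Among NF-kB feedback genes 1 was called higher (11.1%), BIRC3 at 1.34, and 3 lower (33.3%) of 9. The number called lower was 5 without vemurafenib replicate 1 and 2 without DMSO replicate 3. Of 6 immune checkpoint ligands 3 were higher and 3 lower, 50% each. Among those lower was CD274, which encodes PD-L1, at under 2.5 CPM in every library (log2 fold change -1.88 ± 0.40, adjusted p = 4.0e-04).

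Extracellular matrix genes were called higher in 16 (64%) and lower in 9 (36%) of 25, beside 34.3% and 32.9% of all tested genes. CEMIP, a hyaluronan-binding protein needed for hyaluronan breakdown, was the lowest gene of the naming rule, with 1.06, 1.67 and 2.09 CPM with vemurafenib and 382, 390.4 and 377 CPM with DMSO (log2 fold change -7.79 ± 0.15 (SE), adjusted p = 2.4e-18). COL5A1, a chain of collagen V, had 397, 445 and 438 CPM in the vemurafenib libraries, against 58.6, 58.7 and 51.7 CPM in the DMSO libraries (log2 fold change 2.93 ± 0.07, adjusted p = 4.6e-17). VCAN, the proteoglycan versican, had 54.8, 49.2 and 61.1 CPM with vemurafenib and 9.10, 7.45 and 7.02 CPM with DMSO (log2 fold change 2.85 ± 0.15, adjusted p = 2.6e-12). COL6A3 was called lower at -2.83. Of 6 tested fibroblast markers 4 were called higher (66.7%) and 2 lower (33.3%). Their summed level was 20.6 ± 0.453 CPM with vemurafenib and 17.7 ± 1.72 CPM with DMSO (SD, n = 3 each). FAP had 3.90, 3.67 and 5.63 CPM in the vemurafenib libraries, against 0.168, 0 and 0.351 CPM in the DMSO libraries (log2 fold change 4.33 ± 0.52, adjusted p = 5.7e-07). COL3A1, also the highest member of the matrix list, had 22 counts over the vemurafenib libraries and 1 over the DMSO libraries (ratio 22.6, 95% counting interval 3.65 to 932, adjusted p = 1.3e-04). DCN and LUM were higher too, at 1.10 and 1.17. The 2 called lower were PDGFRA at -2.36 and COL1A1 at -0.97. Below the filter, THY1 had 1 count over the vemurafenib libraries and 2 over the DMSO libraries, COL1A2 had 3 and 5, and the matrix gene POSTN had 18 and 1. The part of these markers in the matrix result was not tested.

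Among 18 proteases and inhibitors 9 were called higher (50%) and 6 lower (33.3%), beside 34.3% and 32.9% of all tested genes. MMP15, a membrane-bound metalloprotease, had 982, 1145 and 1075 CPM with vemurafenib and 29.5, 30.8 and 30.9 CPM with DMSO (log2 fold change 5.13 ± 0.11, adjusted p = 1.2e-17). CTSK was given above. SERPINE2, an inhibitor of thrombin and plasminogen activators, had 1150.4, 1202 and 1158 CPM with vemurafenib and 4617, 4838 and 5027 CPM with DMSO (log2 fold change -2.04 ± 0.04, adjusted p = 5.4e-18), and TIMP3, an inhibitor of metalloproteases, was lower at -1.28. Of 22 YAP and TEAD targets 6 were higher (27.3%) and 11 lower (50%), and without DMSO replicate 4 the counts were 3 and 10. CCN2 (1.89) led the higher ones with GADD45B, and the CCN1 call (0.59) was lost without vemurafenib replicate 1 (adjusted p = 0.28) and without DMSO replicate 2, 3 or 4 (0.053, 0.072 and 0.052), and with DESeq2 (0.096).

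All 23 tested genes of glycolysis and glucose uptake were called lower, with log2 fold changes between -1.77 and -0.22 and a median of -0.78, where 32.9% of all tested genes were lower. Without vemurafenib replicate 4, 22 of the 23 were called. Their summed level was 11391 ± 117 CPM with vemurafenib and 20361 ± 430 CPM with DMSO (SD, n = 3 each). LDHA, which makes lactate from pyruvate, had 234, 245 and 228 CPM in the vemurafenib libraries, against 748, 823 and 838 CPM in the DMSO libraries (log2 fold change -1.77 ± 0.05, adjusted p = 6.2e-16). SLC2A3, the glucose transporter GLUT3, had 30.3, 15.2 and 19.2 CPM with vemurafenib and 74.0, 65.5 and 75.6 CPM with DMSO (log2 fold change -1.76 ± 0.15, adjusted p = 3.5e-09). The enzyme enolase 1, ENO1, had 1215, 1282 and 1263 CPM in the vemurafenib libraries, against 3538, 3664 and 3727 CPM in the DMSO libraries (log2 fold change -1.54 ± 0.04, adjusted p = 7.2e-17). Respiratory chain and TCA cycle genes were lower in 18 (60%) and higher in 4 (13.3%) of 30, with a median of -0.21. The succinate dehydrogenase subunit SDHB was lowest at -0.84.

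Cholesterol synthesis genes were called lower in 16 (84.2%) and higher in 2 (10.5%) of 19, beside 32.9% and 34.3% of all tested genes. STARD4, a sterol carrier, and DHCR7, the last enzyme of cholesterol synthesis, were lower at -1.85 and -1.66. MVD, a decarboxylase of the mevalonate pathway, was called higher at 0.42. Genes of ATF4 and amino acid supply were lower in 14 (73.7%) and higher in 4 (21.1%) of 19, with a median of -1.22. PHGDH, the first enzyme of serine synthesis, had 37.2, 44.9 and 44.6 CPM in the vemurafenib libraries, against 305, 298 and 299.95 CPM in the DMSO libraries (log2 fold change -2.82 ± 0.07, adjusted p = 5.0e-17). SLC7A11, the cystine transporter, had 10.8, 11.4 and 14.2 CPM with vemurafenib and 76.8, 80.5 and 80.8 CPM with DMSO (log2 fold change -2.67 ± 0.10, adjusted p = 4.6e-14). ATF3, a stress-induced transcription factor, had 253, 146 and 160.2 CPM with vemurafenib and 46.7, 34.9 and 46.0 CPM with DMSO (log2 fold change 2.11 ± 0.20, adjusted p = 2.4e-08), with replicate 1 the highest.

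All 24 tested ribosome biogenesis genes were called lower, with log2 fold changes between -1.94 and -0.29 and a median of -1.001. LYAR, a nucleolar factor, had 19.5, 20.5 and 24.6 CPM with vemurafenib and 78.7, 82.2 and 90.2 CPM with DMSO (log2 fold change -1.94 ± 0.09, adjusted p = 5.6e-13), and the pseudouridine synthase dyskerin, DKC1, and the methyltransferase fibrillarin, FBL, were lower at -1.29 and -1.23. The ribosomal proteins themselves lay near 0: 11 of 32 were called higher and 7 lower, between -0.39 and 0.28, and they held 40772 ± 834 CPM with vemurafenib and 40624 ± 1552 CPM with DMSO (SD, n = 3 each). Their called shares were 34.4% higher and 21.9% lower, beside 34.3% and 32.9% of all tested genes.

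Of 20 tested p53 targets 11 were called higher (55%) and 4 lower (20%), beside 34.3% and 32.9% of all tested genes. TP53INP1 and ZMAT3 led at 2.21 and 1.59, and AEN and GDF15 were lowest at -1.54 and -1.16. Of 13 transcripts of the mitochondrial genome 5 were higher, with MT-CO1 at 0.75, and 5 lower, with MT-ND3 at -0.59. Each count is 38.5%, beside 34.3% higher and 32.9% lower of all tested genes.

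The largest increases outside the lists were in genes almost silent with DMSO. ANGPTL7, a secreted angiopoietin-like protein, had 249, 252 and 222 CPM in the vemurafenib libraries, against 0, 0 and 0.175 CPM in the DMSO libraries, with 2 counts in the DMSO libraries and a ratio of pooled CPM of 2752 (95% counting interval 762 to 22732). PCSK2, a convertase that cleaves prohormones, had 272, 263 and 272 CPM in the vemurafenib libraries, against 0.168, 0.169 and 0.263 CPM in the DMSO libraries (log2 fold change 10.201 ± 0.18, adjusted p = 1.1e-18). MGAM, a digestive alpha-glucosidase, had 13.1, 10.7 and 13.9 CPM in the vemurafenib libraries and 0 counts with DMSO, so it was at least 99.6-fold higher, taking 3 counts over the DMSO group as the floor. Counting intervals and floors cover counting error only, and the SE of PCSK2 does not cover that of its few DMSO counts.

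CCN3, a matricellular protein, had 559.5, 544 and 579.9 CPM in the vemurafenib libraries, against 4.72, 4.23 and 4.21 CPM in the DMSO libraries (log2 fold change 7.01 ± 0.08, adjusted p = 7.0e-21), and this gene was well counted in both groups. CD36, a fatty acid transporter, had 26.6, 28.4 and 28.3 CPM with vemurafenib and 0.168, 0.169 and 0.0877 CPM with DMSO (ratio 216, 95% counting interval 73.7 to 1051). DLX5 and OTOGL had log2 fold changes of 7.10 and 6.11 with 4 and 6 counts under DMSO. RGS8, with 1 count under DMSO, gave a ratio of 244 (43.4 to 9688), and NKAIN4, with 3 counts, one of 102 (34.7 to 499).

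Among the genes lowered most, GJB1, which encodes the gap junction protein connexin 32, had 0.177, 0 and 0.0907 CPM with vemurafenib and 16.0, 19.0 and 18.7 CPM with DMSO, with 2 counts under vemurafenib and a ratio of 0.00489 (95% counting interval 0.00059 to 0.0178). FGFRL1, an FGF receptor without a kinase domain, had 4.79, 8.35 and 7.44 CPM with vemurafenib and 253, 255 and 261 CPM with DMSO (log2 fold change -5.19 ± 0.13, adjusted p = 8.3e-17). LPL, which releases fatty acids from lipoproteins, had 0.709, 0.668 and 0.454 CPM with vemurafenib and 20.05, 23.5 and 23.1 CPM with DMSO (log2 fold change -5.24 ± 0.21, adjusted p = 7.7e-14). KRT81, COL13A1, THSD4, PDZD2, MYH15 and SLCO4A1 followed at -6.35, -5.90, -4.91, -4.89, -4.84 and -4.77. KRT81 is a hair keratin whose near-identical relatives could share its reads.

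By change in CPM, which favours long and abundant transcripts, the 8 largest gains were in EEF1A1, MT-CO1, THBS1, CD74, COL5A2, PSAP, COL9A3 and SPARC. COL5A2, a chain of collagen V, had 2288, 2366 and 2396 CPM with vemurafenib and 247, 248 and 249 CPM with DMSO (log2 fold change 3.24 ± 0.04, adjusted p = 3.1e-20), and THBS1, thrombospondin 1, had 3484, 4098 and 3903 CPM with vemurafenib and 736, 705 and 728 CPM with DMSO (log2 fold change 2.40 ± 0.06, adjusted p = 3.3e-17). EEF1A1, a translation elongation factor with many pseudogene copies, had 14239.7, 14845 and 14235 CPM in the vemurafenib libraries, against 9907, 10494 and 10572 CPM in the DMSO libraries (log2 fold change 0.48 ± 0.04, adjusted p = 3.4e-09).

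The 8 largest losses were in SERPINE2, GNAS, ENO1, GAPDH, ACTB, PKM, TUBA1B and ACTG1. TUBA1B, an alpha-tubulin, had 255, 317 and 290.0 CPM in the vemurafenib libraries, against 1675, 1782 and 1783 CPM in the DMSO libraries (log2 fold change -2.60 ± 0.07, adjusted p = 1.8e-16). The cytoplasmic actins ACTB and ACTG1, often used as loading controls, had log2 fold changes of -0.95 and -0.80, and GAPDH one of -0.51, with no overlap between the groups in any of the 3.

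The vemurafenib effect in A375 was then set against the targeted-drug effects of the other 5 lines at 48 h, each against its own DMSO: A549 with GSK1120212 (trametinib, a MEK inhibitor), H3122 with crizotinib, N87 with lapatinib, PC9 with erlotinib, and RT112 with BGJ398. The doses were 200 nM for GSK1120212, 250 nM for crizotinib, 100 nM for lapatinib and 1 uM for erlotinib and for BGJ398. These drugs, doses and lines differ, so a difference belongs to line and drug together. Effects are from one edgeR fit over 36 libraries, in which A375 values differ slightly from those above. The A375 effect was called higher than the mean of the other 5 for 4121 of 18317 genes (22.5%) and lower for 3859 (21.1%). Against A549 alone, 4452 were higher (24.3%) and 4476 lower (24.4%).

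CSPG4 had an effect of -2.50 in A375 on the log2 scale and positive effects in the other lines, 2.91 for A549, 1.25 for H3122 (where it was under 1 CPM), 2.36 for N87, 4.02 for PC9 and 2.30 for RT112. The difference was -5.07 ± 0.19 (SE), adjusted p = 6.0e-22. GPRC5A, an orphan receptor induced by retinoic acid, showed the same arrangement, with -3.63 in A375 and effects between 0.63 and 2.63 in the others (difference -5.19 ± 0.18 (SE), adjusted p = 5.5e-23). FGFRL1 had -5.16 in A375 and between -0.66 and -0.31 in the others (difference -4.75 ± 0.09 (SE), adjusted p = 6.8e-30). CEMIP fell most in A375 but was also negative in A549, N87 and H3122, at -3.86, -2.79 and -1.96. Its effect was positive in PC9, at 1.73, and in RT112, at 0.32. The CEMIP difference from the mean was -6.45 ± 0.22 (SE), adjusted p = 7.0e-23. CEMIP was under 1 CPM in RT112.

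Upward, COL8A1, a short-chain collagen, had 5.72 in A375 and between -1.57 and 0.90 elsewhere (difference 5.77 ± 0.26 (SE), adjusted p = 1.2e-19). CCN3 had 7.03 in A375 and between -1.06 and 0.80 elsewhere (difference 7.30 ± 1.503 (SE), adjusted p = 1.2e-04). COL8A1 was under 1 CPM in RT112 and CCN3 in A549. MGAM differed by 8.26 ± 1.03 (SE), adjusted p = 3.7e-08, but as it had no count with DMSO in A375 the size depends on the prior count of the fit. OTOGL, TCN1 and NRXN2, the other 3 of the 6 highest, were under 1 CPM in 4, 3 and 5 of the other lines, so their sizes are uncertain.

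Among the feedback inhibitors the lines did not share one pattern. DUSP6 had an effect of -0.33 in A375, against -3.56 for A549, -0.74 for H3122, -2.78 for N87, -5.05 for PC9 and -3.48 for RT112 (difference from the mean 2.79 ± 0.24 (SE), adjusted p = 7.4e-12). SPRED1 and SPRED2 also fell less in A375 than in the mean of the others, by 1.49 and 1.24. SPRED1 had -0.35 in A375, -0.50 in H3122, -0.58 in N87, -1.96 in A549, -3.04 in RT112 and -3.14 in PC9. SPRED2 had -0.94 in A375, -0.29 in H3122, -1.07 in N87, -2.22 in A549, -3.14 in RT112 and -4.19 in PC9. The SPRY2 difference of 0.72 was lost without vemurafenib replicate 1 (0.28, adjusted p = 0.11) and without PC9 (0.40, adjusted p = 0.15). SPRY1, RASA2 and ERRFI1 fell more in A375, with differences of -3.27, -2.43 and -2.26.

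Directly against trametinib in A549, which blocks the same cascade one step below RAF, the SPRY1 effect was -3.83 in A375 and -1.47 in A549 (difference -2.36 ± 0.45 (SE), adjusted p = 3.8e-05), and the RASA2 effect -2.49 and 0.61 (difference -3.10 ± 0.17 (SE), adjusted p = 5.1e-17). TINAGL1, a matrix glycoprotein, had -3.76 in A375 and 2.51 in A549 (difference -6.27 ± 0.13 (SE), adjusted p = 3.1e-29). SOD3, the extracellular superoxide dismutase, had -0.93 in A375 and 7.37 in A549 (difference -8.30 ± 0.72 (SE), adjusted p = 3.5e-11). For DUSP4, DUSP5 and SPRY4 neither difference was called. Without vemurafenib replicate 1 the DUSP4 effect was called lower in A375 than in the mean of the others (-0.54, adjusted p = 0.042) and than in A549 (-0.65, adjusted p = 0.039). SPRY4 had -4.36 in A375 and -6.17 in A549 (difference 1.81 ± 0.93 (SE), adjusted p = 0.11).

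**Figure D5:**
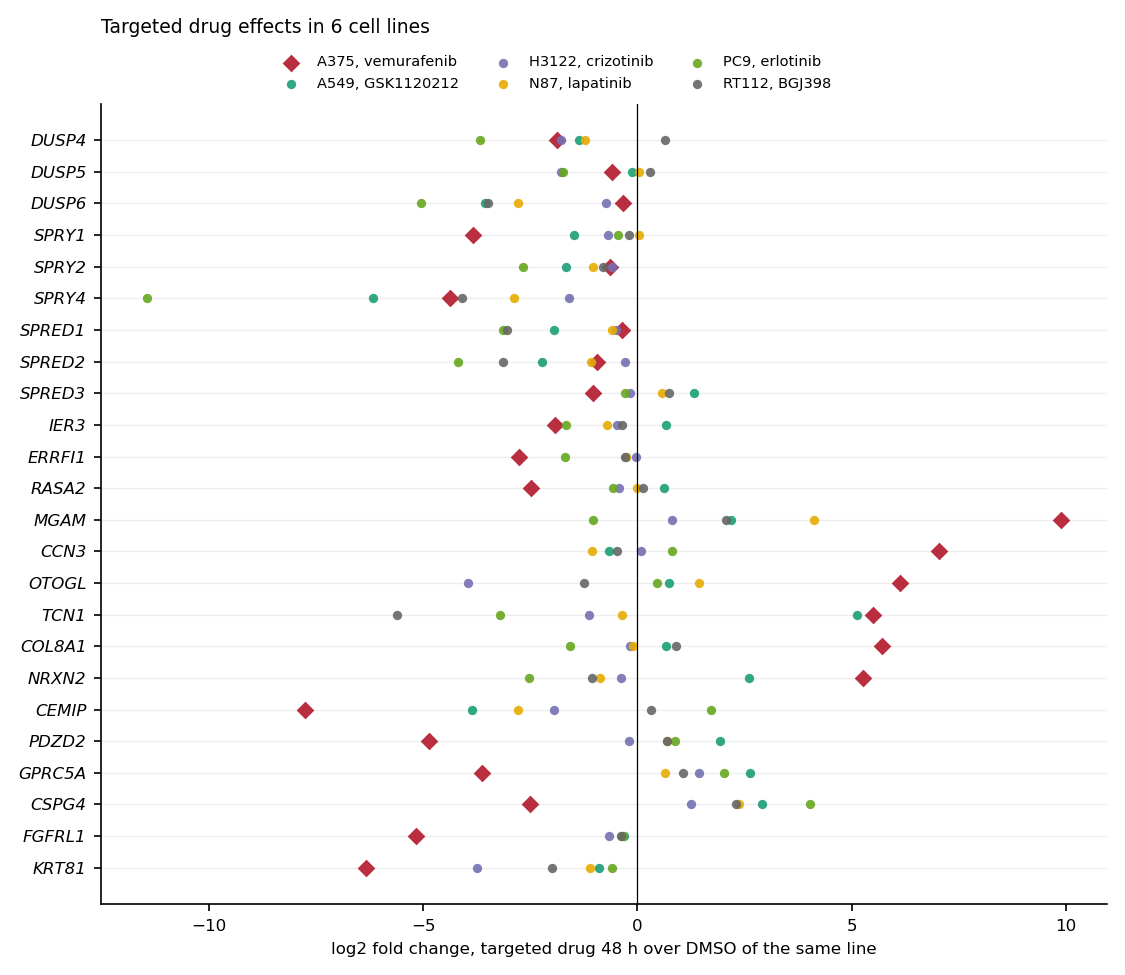
Log2 fold change of the targeted drug at 48 h over DMSO (x axis) in 6 lines for the 12 feedback inhibitors and for the 6 genes whose A375 effect was highest and the 6 whose effect was lowest relative to the mean of the other 5 lines, A375 as red diamonds. CSPG4 and GPRC5A are left of 0 in A375 and right of 0 in the other 5, and DUSP6 is nearest to 0 in A375.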

How the data were processed

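RNA of cultured A375 cells was sequenced from NEBNext Ultra RNA libraries, per the labels' protocols. No source used here says whether counting used strand, so genes and their antisense partners cannot be told apart. The authors deposited gene-level expected counts made with RSEM 1.2.12 and Bowtie2 2.2.1 on hg19, per the submitters' processing notes. Their gene annotation is likewise not given.

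Expected counts were rounded to whole numbers. The 15 A375 libraries, 5 arms of 3, entered a quasi-likelihood fit after filterByExpr and TMM scaling (edgeR 4.0.16, limma 3.58.1, R 4.3.3), and p-values were Benjamini-Hochberg adjusted over all tested genes. A gene was called at an adjusted p under 0.05, with a separate count at 2-fold. Differences between lines were tested likewise over 36 libraries. Log2 fold changes are edgeR's, with its default prior count. The SE is the size of the log2 fold change divided by the square root of the quasi-likelihood F statistic. In genes with few counts in a group it can be smaller than counting error alone. Symbols came from a table matched by Ensembl ID for 37404 of 53893 IDs. Promoters are RefSeq sequences of GRCh38.p14, used without converting coordinates.

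Libraries of the 2 arms share only the numbers 3 and 4 and did not deviate together (correlations 0.0086 and -0.0097), so they were not paired. Nothing says that libraries came from separate cultures, so p-values measure the spread between libraries, which may be technical. In simulated data for this comparison on 16086 genes, 89.6% of genes changed 1.5-fold and all of those changed 2-fold or 4-fold were called, and 15 of 15886 unchanged genes. The simulation gave every gene the same dispersion, changed a small share of genes and held no departing library. Its rates therefore do not carry over to genes such as EGR1, FOSB and DUSP6, in which vemurafenib replicate 1 departed.

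Named genes are the 12 highest and 12 lowest called genes averaging at least 10 CPM in one group with groups that do not overlap, the 8 largest gains and losses of CPM, the 3 highest and 3 lowest called members of each list, all members of the MAPK feedback, MAPK and melanocyte transcription factor and BCL2 lists, and the 6 highest and lowest differences between lines. The gene lists and the rule were chosen with earlier results of these data known. Alternatives were RLE scaling, library totals, no filter, DESeq2 1.42.0, the 6 libraries alone, a replicate block, other sets of lines, and each library left out. The other A375 arms entered the fit only to estimate the spread. UHRF1, BOP1 and PECAM1 are not analysed here, and some genes that the rule names are not reported here.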

Additional observations from a re-analysis of the deposited data

Results flagged for a closer look

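Every result here was flagged because the drug effect in A375 differed from that in other lines by a test of the difference itself (edgeR quasi-likelihood, adjusted p under 0.05). The values are differences of log2 fold changes, A375 minus the other side.

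Relative to the mean of the other 5 lines, the A375 effect was lower for CEMIP (-6.45), PDZD2 (-5.66), GPRC5A (-5.19), CSPG4 (-5.07), FGFRL1 (-4.75) and KRT81 (-4.68). It was higher for MGAM (8.26), CCN3 (7.30), OTOGL (6.63), TCN1 (6.53), COL8A1 (5.77) and NRXN2 (5.73). Of these 12 genes, GPRC5A, FGFRL1 and MGAM reached 1 CPM in every other line. Among the feedback inhibitors it was higher for DUSP6 (2.79), SPRED1 (1.49), SPRED2 (1.24) and SPRY2 (0.72). It was lower for SPRY1 (-3.27), SPRED3 (-1.47), IER3 (-1.40), ERRFI1 (-2.26) and RASA2 (-2.43). SPRED3 was under 1 CPM in H3122, N87, PC9 and RT112.

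Relative to A549 with trametinib, the A375 effect was lower for GJB1 (-9.18), SOD3 (-8.30), PDZD2 (-6.79), LINC01819 (-6.72), TINAGL1 (-6.27) and GPRC5A (-6.26). It was higher for ANGPTL7 (11.39), MGAM (7.70), MGP (7.23), LSAMP (7.07), COL14A1 (6.81) and FLRT1 (6.61). LINC01819, ANGPTL7, MGP, LSAMP and COL14A1 were under 1 CPM in A549, so the size of their differences rests on few counts. Among the feedback inhibitors it was higher for DUSP6 (3.22), SPRED1 (1.61), SPRED2 (1.28) and SPRY2 (1.05), and lower for SPRY1 (-2.36), SPRED3 (-2.36), IER3 (-2.58), ERRFI1 (-2.49) and RASA2 (-3.10).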

How the results depend on the processing

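Called genes stayed within 1.5 times the reported number under every alternative: 5528 higher and 5301 lower with RLE scaling, 5557 and 5273 with library totals, 5799 and 5206 without a filter, 5082 and 4967 with DESeq2, 5142 and 4999 with the 6 libraries alone, 5365 and 5164 with the replicate block, and 5065 to 5381 higher and 4923 to 5238 lower with 1 library left out. The block added calls for DUSP6 (-0.50, adjusted p = 0.015) and EGR2 (2.28, 0.018), and ended that of MREG (-0.41, 0.056). DESeq2 ended the calls of SPRY2, JUNB, BBC3, CCN1 and MREG (adjusted p = 0.11, 0.052, 0.062, 0.096 and 0.13). Without a filter DUSP5, DUSP6, EGR1, EGR2, EGR3 and FOSB gained calls, the list of NF-kB feedback genes had 2 higher and 5 lower, and 22 of 23 glycolysis genes were called lower.

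Some uncalled values changed sign. Leaving out 1 A375 library gave -0.14 for FOSB, as its lowest value, -0.15 to 0.23 for TFEB, -0.43 to 0.15 for MCL1, -0.53 to 0.38 for the DUSP5 difference from the mean of 5 lines, and list medians of -0.19 to 0.34 for growth factors, -0.0137 to 0.0513 for checkpoint ligands and -0.00819 to 0.0482 for ribosomal proteins. That DUSP5 difference was -0.23 with the replicate block, -0.22 without H3122 and -0.21 without PC9. The DUSP4 difference was 0.13 without RT112, and that of SPRY4 -0.68 without PC9. The DUSP4 difference was called with the replicate block (-0.58 from the mean and -0.70 from A549), without PC9 (-0.95) and without a filter (-0.41 and -0.50). The SPRY4 difference was called without a filter (0.88 and 1.82), without H3122 (1.79), and against A549 without vemurafenib replicate 3 or 4 (2.10 and 2.13). The DUSP5 difference from A549 was called without a filter (-0.47). In each case the cause was not tested. Folds of genes with few counts in a group are limited by depth.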
